A study of Homo sapiens with 9 samples.

Results

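The genes described here were 10 genes of the neuronal cytoskeleton and synapse, of 60708 genes listed in the files: the neurofilament subunits NEFL, NEFM and NEFH, alpha-internexin (INA), the microtubule-binding proteins STMN2 and DPYSL3, the axonal motor KIF1A, the synaptic protein NPTX1, and the RNA-binding proteins ELAVL3 and ELAVL4. They were taken as a list of gene symbols, each matched to 1 gene identifier, and were picked with their counts in these libraries in view, above all the differences between the clones CS16 and CS19. Their values are therefore given as a description, without a test. All 10 had a count in at least 1 library, but 5 of the 10 passed the filter on low counts in each comparison.

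All libraries were labelled as MDA-MB-231, a human triple-negative breast cancer line of the basal B type, grown in serum-containing medium without treatment. Of 9 RNA-sequencing libraries, 3 were labelled WT and 3 each were labelled with the genotype SNAI1-KO as the clones CS16 and CS19, each of which was grown from a single cell after CRISPR/Cas9 targeting of SNAI1, a transcriptional repressor known for its part in the epithelial-mesenchymal transition. Each clone is therefore 1 line, and the 3 libraries of a clone describe that line and not independent knockouts. The labels did not say whether the 3 replicates were separate cultures, so the spread between them may be technical.

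Neurofilaments are the intermediate filaments of axons. NEFL, NEFM, NEFH and INA co-assemble into them and set axon calibre, while kinesins such as KIF1A move synaptic vesicle precursors along axonal microtubules, and the stathmin STMN2 and the CRMP family, to which DPYSL3 belongs, act on microtubules in growth cones. NPTX1 is a secreted pentraxin that clusters glutamate receptors at synapses, and the ELAV-like proteins ELAVL3 and ELAVL4 bind and stabilise messenger RNAs in neurons. In cells outside the nervous system many such genes are held silent by the repressor REST.

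The libraries held 19527195 to 28627777 read pairs counted on genes, so that 3 counts corresponded to 0.103 to 0.158 CPM (counts divided by TMM-scaled library size, the scale of all levels below unless TPM is named). Genes with 3 counts or fewer in a library are treated as lying at this floor, which covers counting error only. WT-2 stood apart from the other WT libraries, as the chi-square divided by its degrees of freedom was 188 and 230 against WT-1 and WT-3 and 14.6 between those 2. Counted over the whole gene, the targeted gene was not lower in the libraries labelled SNAI1-KO. SNAI1 had 16, 38 and 21 counts in WT-1 to WT-3, 26, 40 and 49 in CS16, and 57, 94 and 94 in CS19. The study reported lower SNAI1 mRNA at each exon by RT-qPCR and no detectable SNAI1 protein in the clones. It also reported deletions at the SNAI1 locus in the aligned reads, which a count over the whole gene does not show.

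Genes that mark the line also moved. Of 14 basal B genes fixed as markers of MDA-MB-231, 12 were called lower in CS16 and 13 in CS19, and their levels summed to 10300 to 14500 CPM in the WT libraries, against 557 to 600 for CS16 and 467 to 505 for CS19. CD44 and S100A6 had no count in CS16 and 2 and 1 counts in all in CS19. The 9p21 genes CDKN2A, CDKN2B and MTAP were at 0 throughout WT but summed to 173 to 179 CPM for CS16 and 163 to 189 CPM for CS19. With these values the identity of the libraries labelled CS16 and CS19 as knockout clones of MDA-MB-231 is in doubt, so each difference from WT below is one between libraries so labelled, and an effect of the SNAI1 knockout and a difference between cell lines cannot be told apart. In bulk RNA, fewer cells that express a gene and less of its RNA per cell cannot be told apart.

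Against WT, NEFL, NEFM, KIF1A and NPTX1 were at or near 0 in all WT libraries and present in every library of both clones. DPYSL3 was present in WT and was higher in CS16 and lower in CS19. NEFH, INA, STMN2, ELAVL3 and ELAVL4 stayed at or near the floor. The rule for calls was a log2 fold change of at least 2 and an adjusted p below 0.05. Only 5 of the 10 genes were tested in each comparison. All 5 were called higher in CS16 than in WT, beside 11.8% of 18611 genes tested. None of the 5 was called lower there, beside 15.3%. In CS19 4 of the 5 were called higher than in WT, beside 12.0% of 18935 genes tested, and none lower, beside 14.4%. NEFL, NEFM, KIF1A and NPTX1 passed the filter against WT through the clones, so a lower call was not open to them. Between the clones, 1 of the 5 was called higher in CS16, beside 0.633% of 17538 genes tested, and 2 lower, beside 0.496%. At any fold, 2 were higher in CS16, beside 14.7%, and 3 lower, beside 12.7%. The genes were picked on these contrasts, and their counts carry no test.

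NEFL, the light chain and the core subunit of the neurofilament, lies on the minus strand of chromosome 8 (ENSG00000277586.4, GRCh38, 24950955 to 24956721). It had no count in WT-1, WT-2 or WT-3, 2807, 2850 and 3258 counts in CS16-1 to CS16-3, and 1622, 1609 and 2229 in CS19-1 to CS19-3. The groups did not overlap, and CS16 stood above CS19 in every library. The mean of CS16 was 138 ± 4.03 CPM and that of CS19 73.9 ± 2.03 CPM (SD, n = 3 each), which was at least 921-fold and at least 493-fold higher than in WT, where the bound takes the mean WT level at 3 counts per library. CS16 exceeded CS19 by 0.89 ± 0.064 on the log2 scale (standard error of the fit), a ratio of pooled counts of 1.86 with a 95% counting interval of 1.80 to 1.92.

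NEFM, the medium chain, is the neighbour of NEFL on chromosome 8 (ENSG00000104722.14, plus strand, 24913758 to 24919098), with 31856 bases between them. It too had no count in any WT library. CS16 held 394, 439 and 421 counts and CS19 805, 836 and 946. Here the order of the clones was the other way round, with every CS19 library above every CS16 library. The mean of CS16 was 19.5 ± 2.16 CPM and that of CS19 35.4 ± 2.73 CPM (SD, n = 3 each), at least 130-fold and at least 236-fold higher than in WT, and the CS16 minus CS19 difference was −0.87 ± 0.10 on the log2 scale.

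Per length, the ratio of NEFL to NEFM was 6.57, 5.99 and 7.14 in the CS16 libraries and 1.86, 1.78 and 2.17 in the CS19 libraries. The neighbouring subunits thus stood in different proportions in the clones, with means of 6.57 ± 0.575 and 1.94 ± 0.210 (SD, n = 3 each). Some of their exonic bases, 101 in NEFL and 960 in NEFM, are shared with unnamed genes on the opposite strand, and strand was not used in the counting, so reads from those genes could not be told apart there.

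The other neurofilament partners were at very low counts in all groups. NEFH, the heavy chain on chromosome 22 (ENSG00000100285.10, plus strand, 29480218 to 29491390), had 2, 2 and 1 counts in WT, 4, 3 and 10 in CS16 and 4, 5 and 8 in CS19. INA, on chromosome 10 (ENSG00000148798.11, plus strand, 103277138 to 103290346), had 1, 0 and 1 counts in WT, 6, 5 and 2 in CS16 and 1, 12 and 10 in CS19. Both lay at or close to the floor, at no more than 0.409 CPM and 0.539 CPM in any library, and neither passed the filter. The ratio of pooled counts to WT was 3.16 (95% counting interval 1.12 to 11) in CS16 and 2.78 (0.983 to 9.63) in CS19 for NEFH. For INA it was 6.04 (1.37 to 55.1) and 9.39 (2.32 to 82.2). These intervals cover counting error only and not the spread between libraries, and INA lay at the floor in CS16-3 and CS19-1. NEFH shares 343 exonic bases with an opposite-strand gene and INA 452 with NT5C2, so even these few reads are uncertain. The clones thus held NEFL and NEFM with hardly any reads of NEFH or INA.

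KIF1A, the kinesin that carries synaptic vesicle precursors, lies on the minus strand of chromosome 2 (ENSG00000130294.18, 240713761 to 240824293). It had 0, 2 and 3 counts in WT, 460, 401 and 636 in CS16, and 4854, 5787 and 6452 in CS19. Every CS19 library exceeded every CS16 library, and both clones lay far above WT. The mean of CS16 was 22.9 ± 3.19 CPM and that of CS19 233 ± 23.2 CPM (SD, n = 3 each). Against the 5 pooled WT counts this was a ratio of 278 (95% counting interval 119 to 858) in CS16 and of 2790 (1200 to 8600) in CS19. CS16 minus CS19 was −3.35 ± 0.10 on the log2 scale.

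NPTX1, the secreted pentraxin of glutamatergic synapses, lies on the minus strand of chromosome 17 (ENSG00000171246.6, 80466834 to 80477843). It had 0, 1 and 2 counts in the WT libraries, and its level was 5.62, 7.36 and 7.41 CPM in CS16-1 to CS16-3 and 87.7, 102 and 93.3 CPM in CS19-1 to CS19-3. As with KIF1A, CS19 was the higher clone in every library. The means were 6.80 ± 1.02 CPM for CS16 and 94.2 ± 6.97 CPM for CS19 (n = 3 each), and the CS16 minus CS19 difference of −3.79 ± 0.10 on the log2 scale was the largest among the 5 genes that passed the filter. Against the 3 pooled WT counts the ratio was 137 (46.7 to 668) in CS16 and 1890 (646 to 9160) in CS19.

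DPYSL3, a CRMP protein of growth cones also known as CRMP4, lies on the minus strand of chromosome 5 (ENSG00000113657.13, 147390808 to 147510068). Its level was 4.26, 6.02 and 5.02 CPM in WT-1 to WT-3, from 305 counts in all, 34.8, 34.8 and 35.1 CPM in CS16-1 to CS16-3, from 2260 counts, and 3.20, 2.83 and 2.67 CPM in CS19-1 to CS19-3, from 212 counts. The groups did not overlap, with CS16 above WT and CS19 below it. The means were 5.10 ± 0.881 CPM for WT, 34.9 ± 0.170 for CS16 and 2.90 ± 0.276 for CS19 (SD, n = 3 each). On the log2 scale CS16 exceeded WT by 2.69 ± 0.22, CS19 minus WT was −0.88 ± 0.25, which was short of the cut-off on the fold change, and CS16 exceeded CS19 by 3.59 ± 0.11. It was the only one of the 5 genes that passed the filter with a level above the floor in every WT library.

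The 3 remaining genes gave almost no reads. STMN2, a stathmin of axon growth and regeneration on chromosome 8 (ENSG00000104435.14, plus strand, 79611117 to 79666158), had 4 counts in CS16-1 and 0 in the other 8 libraries. ELAVL3, on chromosome 19 (ENSG00000196361.10, minus strand, 11451326 to 11481046), had 1, 10 and 3 counts in WT, 2, 0 and 0 in CS16, and 2, 1 and 0 in CS19, and 256 of its exonic bases are shared with another gene. ELAVL4, on chromosome 1 (ENSG00000162374.18, plus strand, 50024029 to 50203772), had 1 count in all, in CS16-2. For ELAVL3 the ratio of pooled counts to WT was 0.133 (95% counting interval 0.0146 to 0.578) in CS16 and 0.175 (0.0322 to 0.627) in CS19, with 10 of its 14 WT counts in WT-2. For STMN2 and ELAVL4 no difference between groups was detectable at this depth.

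Placed in order per exonic length, the levels in CS16 were NEFL with 107 TPM, NEFM with 16.3, DPYSL3 with 14.8, KIF1A with 3.92 and NPTX1 with 2.91. NEFM and DPYSL3 were neighbours whose ranges over 3 libraries overlapped, and so were KIF1A and NPTX1. In CS19 the order was NEFL with 55.6 TPM, NPTX1 with 39.9, KIF1A with 38.9, NEFM with 29.1 and DPYSL3 with 1.20. There the ranges of NPTX1 and KIF1A overlapped, and those of KIF1A and NEFM touched. NEFL had rank 1248 of 34233 genes with a count in CS16 and rank 2380 of 35510 in CS19, whereas KIF1A had ranks 11776 and 3483. The exonic length of KIF1A, 17879 bases, sums the exons of many annotated transcripts, so its TPM is a low estimate for any shorter one.

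**Figure D1:**
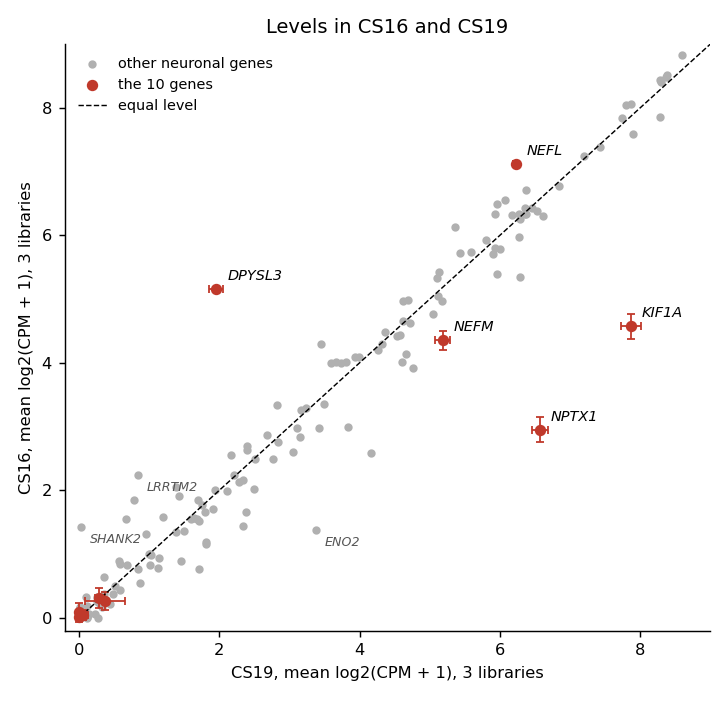
Mean log2(CPM + 1) over 3 libraries in CS19 (horizontal axis) and CS16 (vertical axis) for the 10 genes in red, with SD bars, and for 166 other neuronal genes in grey, beside the line of equal level. KIF1A and NPTX1 lie far on the CS19 side, DPYSL3 far on the CS16 side, and NEFL and NEFM on opposite sides closer to the line.

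Promoter sequences were at hand for 4 of the 10 genes (RefSeq, GRCh38.p14), namely INA, ELAVL4, KIF1A and DPYSL3, in 13 windows of 250 bases before an annotated start. Windows of 3 genes are shown, because KIF1A and DPYSL3 differed most between the clones in opposite directions and INA is the neurofilament partner without appreciable reads. They read 5′ to 3′ on the gene's strand and leave out bases that the files' annotation places in an exon. Capitals mark matches to the searched motifs on either strand.
DPYSL3 (chr5:147510069-147510318, minus strand): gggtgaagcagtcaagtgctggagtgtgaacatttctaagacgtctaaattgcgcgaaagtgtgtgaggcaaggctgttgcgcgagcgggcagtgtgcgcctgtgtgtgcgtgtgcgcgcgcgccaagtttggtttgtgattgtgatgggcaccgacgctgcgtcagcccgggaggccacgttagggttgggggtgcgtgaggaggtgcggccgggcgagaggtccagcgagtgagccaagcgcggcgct
KIF1A (chr2:240820373-240820469, minus strand): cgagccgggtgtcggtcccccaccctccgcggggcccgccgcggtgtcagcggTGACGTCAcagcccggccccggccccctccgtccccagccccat
INA (chr10:103276888-103277137, plus strand): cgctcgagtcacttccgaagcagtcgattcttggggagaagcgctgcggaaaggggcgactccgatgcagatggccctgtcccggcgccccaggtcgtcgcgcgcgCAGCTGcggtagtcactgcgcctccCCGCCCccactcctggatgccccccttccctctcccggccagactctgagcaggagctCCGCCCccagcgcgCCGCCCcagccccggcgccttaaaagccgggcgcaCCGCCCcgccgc

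The motifs were CAGGTG, an E-box of the kind SNAI1 binds, and CAGCTG, an E-box of neurogenic bHLH factors. GGGCGG is the GC box. TGACGTCA is the cAMP response element. TTCAGCACC is the left part of the RE1 element that REST binds, and its right part is GGACAGC. The TATA box was searched as TATAAA and the CAAT box as CCAAT, and every motif on both strands. None of the motifs overlapped another by its letters in the stretches shown. CAGGTG was found in 1 of the 13 windows, one of the 7 of ELAVL4, beside 17.5% of all 35116 windows of the same length. GGGCGG was found in 3 windows, beside 42.6%, and TGACGTCA in 1 of the 3 windows of KIF1A, 197 bases before the start, beside 1.65%. CAGCTG was found in 5 windows, beside 14%, and CCAAT in 4, all of ELAVL4, beside 32%. Neither RE1 part was found, beside 0.288% for TTCAGCACC and 4.76% for GGACAGC, and TATAAA was not found either, beside 10.7%. The DPYSL3 stretch shown held none of the 8 motifs, but the other DPYSL3 window, not shown, held GGGCGG 3 times and CAGCTG once. The INA stretch held GGGCGG 4 times and CAGCTG once. The KIF1A window also held GGGCGG and CAGCTG, 48 and 108 bases before the start, outside the bases shown. The G and C content of the windows shown was 62.8% for DPYSL3, 82.0% for KIF1A and 72.8% for INA, beside a median of 58% over all windows. It was 63.6% in the other DPYSL3 window and 49.6% and 71.6% in the other KIF1A windows.

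Relatives of the 10 genes, which were placed on lists with earlier results of these data known, went through the quasi-likelihood test of edgeR, adjusted by Benjamini-Hochberg over all genes. Of 166 such genes, 163 had a count and 126 were tested against WT in each clone. In CS16 46 were called higher, 36.5% of those tested beside 11.8% over all genes, and 20 lower, 15.9% beside 15.3%. In CS19 45 were called higher, 35.7% beside 12.0%, and 21 lower, 16.7% beside 14.4%. The share of lower calls was thus near that over all genes. The median log2 fold change over the genes tested was 0.59 in CS16 and 1.12 in CS19, beside −0.03 and −0.003 over all genes. It was the same with genes without a count in a group set to their bound. Such genes kept their side of the median there, so this is no check on it. Both comparisons use the same WT libraries.

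Among the intermediate filament relatives, none of 5 tested was called higher and 3 were called lower in each clone. Nestin (NES), the filament of neural progenitors, stood at 66.3 CPM in WT, 4.89 in CS16 and 3.54 in CS19. Its log2 fold change was −3.85 ± 0.25 in CS16 (adjusted p = 2e-05, edgeR) and −4.30 ± 0.26 in CS19 (adjusted p = 1.34e-05, edgeR). GFAP, the astrocyte filament, and SYNM, synemin, were the others, with log2 fold changes of −2.85 and −2.77 in CS16. VIM, vimentin, changed by −1.41 and −1.56, short of the cut-off. Peripherin (PRPH), the other neuronal filament, and DES, desmin of muscle, averaged no more than 0.301 CPM in any group and did not pass the filter. PRPH had no count in WT and 20 and 21 in all in CS16 and CS19, at least 2.01-fold and at least 1.89-fold higher. DES had no count in WT and 17 and 15 in the clones, at least 1.75-fold and at least 1.33-fold higher.

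In the CRMP family, DPYSL5 and DPYSL4 were called higher and DPYSL2 lower in both clones, while CRMP1 was not called. DPYSL5 had 1 count in all WT libraries together and stood at 61.9 CPM in CS16 and 76.5 CPM in CS19. DPYSL4 rose by 5.47 ± 0.40 in CS16 and 5.70 ± 0.39 in CS19 on the log2 scale (adjusted p = 3.36e-05 and 2.23e-05, edgeR). DPYSL2 fell from 418 CPM to 78.0 and 97.5 CPM. Between the clones, DPYSL5 and DPYSL2 differed by −0.31 and −0.33 on the log2 scale for CS16 minus CS19, beside 3.59 for DPYSL3 (adjusted p = 0.00613 and 0.00282, edgeR).

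The microtubule and growth cone genes were split, with 4 called higher and 3 lower of 13 tested in each clone. TUBB2B, a tubulin of developing neurons, went from 3.57 CPM to 79.5 in CS16 and 76.5 CPM in CS19. MAP1A also rose in both, by 4.91 and 5.00 on the log2 scale. MAP2 and TUBB3, both widely used markers of neurons, and MAP1B were called lower in both clones. MAP2 fell from 6.16 CPM to 0.194 and 0.214 CPM, and TUBB3 from 2.89 CPM to 0.276 and 0.282 CPM. MAPT, the axonal protein tau, stood at 2.30 CPM in WT, 5.05 in CS16 and 16.9 in CS19, and was called in CS19 alone, while the clones differed by −1.75 ± 0.12 (CS16 minus CS19, adjusted p = 2.69e-07, edgeR). GAP43, of growth cones, differed the other way, with 1.95 CPM in CS16 and 0.595 CPM in CS19 (1.71 ± 0.31, adjusted p = 0.001, edgeR).

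Of the kinesins, KIF5C, KIF5A and KIF21B were called higher in both clones, and none of 11 was called lower. KIF5C, a neuronal kinesin-1 heavy chain, stood at 0.0495 CPM in WT, 39.9 in CS16 and 77.2 in CS19, with a difference between the clones of −0.96 ± 0.067 (adjusted p = 4.23e-07, edgeR). KIF5A, its neuronal paralogue, stood at 16.2 and 14.9 CPM, with no difference detected between them (adjusted p = 0.505, edgeR). KIF1B and KIF1C, the closest relatives of KIF1A, were expressed in all groups, KIF1C at 304, 264 and 223 CPM on average in WT, CS16 and CS19, and neither was called.

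**Figure D2:**
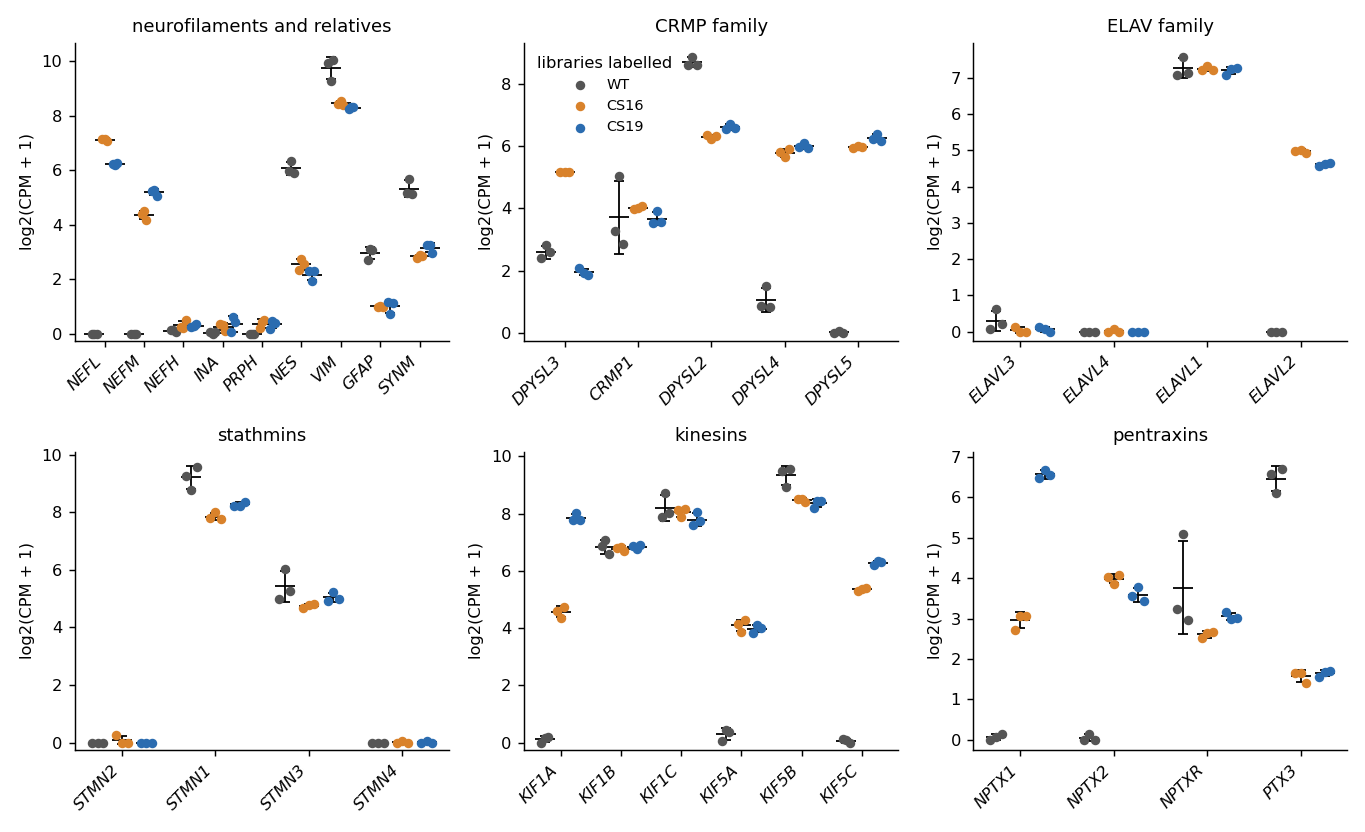
Expression as log2(CPM + 1) of the 10 genes beside relatives in 6 families, with 1 point per library and black bars for the mean and SD over 3 libraries of WT, CS16 and CS19. Within each family some relatives followed another order of the groups, for example DPYSL2, NES and PTX3, which were highest in WT.

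The neuronal pentraxin NPTX2 was at 0.0352 CPM in WT and at 14.9 CPM in CS16 and 11.1 CPM in CS19. It was thus called higher in both clones, with a CS16 minus CS19 difference of 0.43 ± 0.12 (adjusted p = 0.0154, edgeR), against −3.79 for NPTX1. PTX3, the pentraxin of inflammation, fell from 88.8 CPM to 1.98 and 2.13 CPM. Among glutamate receptor genes, GRIK2 and GRIK4, of the kainate type, and GRIN2B, of the NMDA type, were called lower in both clones. GRIK5 was called higher in CS19 at 0.505 CPM. In CS16 GRIK5 did not pass the filter and was not tested, although it had 53 counts there, 37 in CS19 and 4 in WT. The AMPA receptor genes GRIA1 to GRIA4, whose products NPTX1 clusters, averaged no more than 0.251 CPM in any group and were not tested.

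Of 12 neuronal RNA-binding genes tested, 6 were called higher in each clone and none lower. ELAVL2, the paralogue of ELAVL3 and ELAVL4, had no count in WT and stood at 30.4 CPM in CS16 and 23.5 CPM in CS19, at least 203-fold and at least 157-fold higher. NOVA1, a neuronal splicing factor, likewise had no count in WT and reached 6.32 and 5.44 CPM. MSI1, of neural stem cells, went from 0.0704 CPM to 16.1 and 14.4 CPM. ELAVL1, the ubiquitous member, stood at 155, 150 and 146 CPM in WT, CS16 and CS19 and was not called. Reads of the ELAV-like family in the clones were thus nearly all those of ELAVL1 and ELAVL2.

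Synaptic genes were called in both directions. Of the presynaptic genes 9 were called higher in each clone, of 26 tested in CS16 and 25 in CS19, and 2 lower. SYP, synaptophysin of synaptic vesicles, rose from 1.71 CPM to 16.9 in CS16 and 24.2 CPM in CS19, and SYN2, a synapsin, from 0.516 CPM to 6.92 and 9.71 CPM. ERC2, of the active zone, stood at 7.01 and 13.2 CPM in the clones (CS16 minus CS19 −0.93 ± 0.11, adjusted p = 4.83e-05, edgeR). STX1A, a SNARE gene, fell in both clones, from 58.0 CPM to 8.66 and 8.04 CPM. SNAP25, the partner of STX1A in vesicle fusion, averaged no more than 0.557 CPM in any group.

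On the postsynaptic side 8 genes were called higher and 4 lower of 17 tested in CS16, and 6 higher and 5 lower of 16 in CS19. NRXN3, a neurexin, went from 0.0319 CPM to 21.3 and 19.5 CPM. SHANK2, a scaffold of excitatory synapses, was lower than in WT in both clones and differed between them. Its mean was 28.2 CPM in WT, 1.70 in CS16 and 0.0264 in CS19. LRRTM2, an adhesion protein of excitatory synapses, stood at 4.42 CPM in WT, 3.80 in CS16 and 0.795 in CS19.

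Of 10 dense-core granule and neuroendocrine genes tested, 5 were called higher in CS16 and 4 in CS19, and 3 lower in each. UCHL1, an abundant neuronal deubiquitinase, had no count in WT and 192 CPM in CS16 and 239 CPM in CS19, at least 1290-fold and at least 1590-fold higher. NCAM1, the neural cell adhesion molecule, went from 0.0319 CPM to 51.8 and 42.2 CPM. ENO2, neuron-specific enolase, and the granule proteins SCG2 and VGF were lower than in WT in both clones. SCG2 fell from 12.2 CPM to 0.0167 and 0.0899 CPM.

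Transcription factors of neuronal lineages were called higher wherever they were tested, 7 in CS16 and 8 in CS19, but they passed the filter through the clones, since their summed level in WT was 1.13 to 1.69 CPM. POU3F2, a POU factor of neural progenitors, stood at 0.229 CPM in WT, 31.9 in CS16 and 33.7 in CS19, and EBF3 and POU4F1 at 30.6 and 20.6 CPM in CS16 and 25.0 and 22.9 CPM in CS19. Of 13 genes of the REST complex, RCOR2 alone was called, at 0.813 CPM in WT and 5.20 and 4.33 CPM in the clones. REST itself changed by −0.46 ± 0.22 in CS16 and −0.41 ± 0.22 in CS19 (adjusted p = 0.108 and 0.154, edgeR), with 104, 79.6 and 81.9 CPM in WT, CS16 and CS19.

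The label of the list, neuronal markers, was set beside 14 genes that define neurons. In WT 9 of the 14 were above 3 counts in every library and 5 were at the floor in every library. In each clone 7 were above 3 counts in every library, fewer than in WT, and 4 were at the floor. RBFOX3 and SYP were called higher, and MAP2 and TUBB3 lower, in both clones. Their summed level was 24.9 to 27.4 CPM in WT, 39.3 to 45.1 in CS16 and 69.2 to 71.8 in CS19. DCX and SLC17A6 averaged no more than 0.0328 CPM in any group. GAD1, the GABA-synthesising enzyme, stood at 5.21, 5.36 and 18.2 CPM in WT, CS16 and CS19 (CS16 minus CS19 −1.77 ± 0.11, adjusted p = 1.77e-07, edgeR).

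Markers of other cell types moved beside these genes. Of 10 glial genes, the summed level was 218 to 232 CPM in WT, 178 to 187 in CS16 and 63.4 to 73.8 in CS19. Most of the WT sum was MBP, which fell from 197 CPM to 0.876 and 0.666 CPM. SLC1A3 stood at 19.4 CPM in WT, 170 in CS16 and 60.0 in CS19. Of 6 glial genes tested, 3 were called higher and 2 lower in CS16, and 2 higher and 2 lower in CS19. OLIG2 had no count in WT, 538 in all in CS16 and 449 in CS19. AQP4 had no count in WT, 87 in CS16 and 97 in CS19. Of 13 embryonic kidney genes, the summed level was 63.6 to 103 CPM in WT, 150 to 155 in CS16 and 140 to 169 in CS19, and 5 were called higher and 3 lower in CS16, and 4 higher and 3 lower in CS19. SALL1 was at 0 in WT and at 22.6 and 16.4 CPM in the clones, and PAX2 at no more than 0.234 CPM on average in any group. PAX8, GATA3 and WNT4 were those called lower, PAX8 from 15.2 CPM in WT to no count in CS16 and 0.0228 CPM in CS19. Without WT-2, GATA3 in CS16 and CS19 (−1.95 and −1.93 on the log2 scale) and WNT4 in CS19 (−1.38) no longer passed the cut-off, and WNT4 in CS19 also lost its call without CS19-1 or CS19-3 (adjusted p = 0.0637 and 0.0668, edgeR). Their part in the levels of the 10 genes was not tested.

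Across all 121 other neuronal genes tested between the clones, 2 were called higher in CS16, 1.65% beside 0.633% over all genes. Called lower was 1, 0.826% beside 0.496%. At any fold 20 were higher, beside 14.7% over all genes, and 22 lower, beside 12.7%. The median log2 difference was −0.04, beside −0.02 over all genes. By size, 3 of the 10 genes differed by more than 2 on this scale, and so did SHANK2, LRRTM2 and ENO2 among the others. The 10 genes were picked for such differences, so their number is not to be compared with that of the others.

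The genes next to the 10 along the chromosomes were named by position, after the values were seen, and those described below were taken for their large differences. In CS16 against WT, the neighbours THOC5, PCGF6, IL7, PRKCSH, ZNF653, ENDOV and RPTOR were tested and not called. Their log2 fold changes were −1.19 to 1.39. DOCK5 was called lower there (−3.27), and HEY1 and JAKMIP2 were called higher (9.10 and 9.22 on the log2 scale). The other neighbours outside the 10 did not pass the filter in that comparison. JAKMIP2, 75369 bases from DPYSL3, had 1, 1 and 0 counts in WT, 493, 516 and 583 in CS16, and 217, 272 and 334 in CS19. Like DPYSL3, JAKMIP2 was higher in CS16 than in CS19, by 1.14 ± 0.091 on the log2 scale. This difference is given without its p, because the gene was taken for its values. Unlike DPYSL3, JAKMIP2 was also well above WT in CS19, by a ratio of 336 (95% counting interval 92.7 to 2780). HEY1, 96212 bases from STMN2, stood at 0.441 CPM in WT, 262 in CS16 and 226 in CS19, although STMN2 had nearly no reads. DOCK5, on the other side of NEFL at 227967 bases, fell from 230 CPM to 25.4 in CS16 and 22.7 CPM in CS19. 

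The genes whose pattern over the 9 libraries was most like that of each member, by Pearson's r of log2(CPM + 1) among 19464 genes, lay on other chromosomes in all but 1 case. For NEFL they were TMEM47 and ZNF711 (r = 0.9999 and 0.9998), both on chromosome X, and for NEFM they were KLRG2 and SIM1 (both r = 0.9992). For KIF1A they were SYK and SMPDL3B (r = 0.998 and 0.9975). For NPTX1 they were WSCD1, on the same chromosome 17, and GFRA1 (r = 0.9972 and 0.9966). For DPYSL3 they were HCLS1 and CD1D (r = 0.9911 and 0.9835). Genes above an r of 0.99 numbered 460 for NEFL, 317 for NEFM, 45 for KIF1A, 20 for NPTX1 and 1 for DPYSL3. The 9 points are 3 groups of 3 libraries, so a high r mostly restates the order and spacing of 3 group means. These numbers also depend on the spread within groups, so they do not rank the patterns of the 5 genes. Among the 5 genes themselves, r was highest between KIF1A and NPTX1, at 0.987, and DPYSL3 stood between −0.25 and 0.433 with the other 4.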

How the data were processed

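RNA was extracted from untreated cells, depleted of ribosomal RNA and made into stranded, paired-end libraries. Per the labels and methods, the authors used Trimmomatic 0.36 for trimming, STAR 2.7.2b for alignment to GRCh38 and counted pairs on gencode genes with featureCounts of Subread 2.0.0. The deposited values were raw counts per gene and library, not normalized, and strand was not used in the counting. No molecular identifiers were used, so counting intervals and floors cover counting error only. Groups came from the labels.

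Comparisons were run with edgeR 4.0.16 under R 4.3.3 (filterByExpr, TMM, quasi-likelihood test), 3 against 3 libraries in a fit of its own for CS16 against WT, CS19 against WT and CS16 against CS19, with Benjamini-Hochberg adjustment over all genes tested. Standard errors are the log2 fold change divided by the root of the test's F. TPM used the exonic lengths in the files. DESeq2 1.42.0, which the methods name, was an alternative, as were RLE and upper-quartile scaling, other filters and fold cut-offs, leaving out the 100 genes of highest mean CPM, a block of replicate numbers, 1 fit of all 9 libraries, and leaving out each library. Python 3.11.15 with pandas 2.3.3 and matplotlib 3.10.9 served for positions, promoters and figures. The fits were tested on simulated data. Same-numbered libraries did not deviate together, with correlations of −0.378 to 0.342, so numbers were not taken as pairs.

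The members and lists were chosen with earlier results of these data known. Named genes were all members, any gene of the filament, CRMP and REST lists, the 3 genes of smallest adjusted p among those called in each direction for the other lists, SNAI1, markers and the 2 genes most like each member. The neighbours by position, the relatives that were not called, and further genes of these lists that are given by level alone were added after their values were seen. A few genes of the lists are counted but not reported here by name.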

Additional observations from a re-analysis of the deposited data

Results flagged for a closer look

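Among the neuronal genes outside the 10, 3 differed between the clones past both cut-offs by the quasi-likelihood test of edgeR with Benjamini-Hochberg adjustment, each with every library of one clone above every library of the other. ENO2 had 29, 32 and 44 counts in CS16 and 214, 219 and 257 in CS19, a CS16 minus CS19 difference of −2.55 ± 0.16 (adjusted p = 1.44e-07, edgeR), while both clones lay below WT. LRRTM2 had 82, 60 and 106 counts in CS16 and 16, 18 and 25 in CS19, a difference of 2.24 ± 0.24 (adjusted p = 1.55e-05, edgeR). SHANK2 had 39, 35 and 35 counts in CS16 and 0, 1 and 1 in CS19, a fitted difference of 5.70 (adjusted p = 4.54e-06, edgeR), which at so few counts depends on the prior count. The ratio of its pooled counts was 62 with a 95% counting interval of 16.8 to 519.

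DPYSL3 moved in opposite directions against WT, with all 3 CS16 libraries above and all 3 CS19 libraries below every WT library. CS16 minus CS19 was 3.59 on the log2 scale, and is given as a description without its p, because the gene was picked for it.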

How the results depend on the processing

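No result changed its direction under any alternative that was run. Without a fold-change cut-off, all genes called rose from 5045 to 10342 (CS16 against WT), from 4990 to 10014 (CS19 against WT) and from 198 to 4814 (CS16 against CS19), and with a cut-off of 1 to 8567, 8309 and 833, as the construction of the cut-off requires. Other neuronal genes called lower went from 20 to 34 in CS16 and from 21 to 32 in CS19 without the cut-off. Between the clones, those called higher and lower went from 2 and 1 to 20 and 22 without it and to 4 and 5 with a cut-off of 1. Without the filter, 7528 genes were called in CS16 against WT, 7513 in CS19 against WT and 352 between the clones, the last with 2 other neuronal genes lower. The cause was not tested.

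Leaving out each library in turn gave 5176 to 5823 genes called for CS16 against WT, with 45 to 50 other neuronal genes higher and 18 to 23 lower. For CS19 against WT it gave 5167 to 5743, with 44 to 51 higher and 19 to 23 lower. Between the clones it gave 224 to 258, with 2 to 3 higher and 1 lower. Without WT-2, HOMER3 in CS16 (−1.94) and the kidney markers GATA3 in both clones and WNT4 in CS19 no longer passed the cut-off, and DPYSL3 differed from WT by 2.82 in CS16 and −0.75 in CS19. With the replicate block, 4943, 4921 and 201 genes were called, with 47, 45 and 2 other neuronal genes higher and 20, 20 and 1 lower, and the numbers are not shown to pair the libraries.

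Depth limits the 5 genes that did not pass the filter, whose ratios rest on a few counts. Genes without a count in WT have lower bounds in place of fold changes, and each clone is 1 line.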
